A study of Mus musculus with 2 samples.

Results

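The globin genes encode the protein chains of haemoglobin, the oxygen carrier of red blood cells. They were measured here in a study of the closing mouse neural tube. Members were chosen by their position in the authors' deposited table, as every row whose locus overlapped 1 of 2 windows of the mm9 build, chr11:32170000-32205000 for the alpha cluster and chr7:110950000-111010000 for the beta cluster. The windows themselves were selected on the fold changes of this table, so the fold changes below are a description of the members and not a test of them. The rule found 11 rows at 10 loci among the 55418 rows at 24214 loci of the table, with 5 rows in the alpha cluster and 6 in the beta cluster.

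RNA came from embryos of mTmG mice crossed with Grhl3-cre mice, both on a C57BL/6 background, at embryonic day 9.5 and 21 to 25 somites. In the mTmG reporter, cells carry a red membrane fluorophore and switch to a green one where Cre has acted, so that green cells descend from cells in which the Grhl3 gene drove Cre. The 1 library of non-neural ectoderm was made from sorted GFP+ cells, and the 1 library of remaining neural tube cells from sorted RFP+ cells of the same dissected tissue, with RNA pooled from 25 embryos and 1 µg of total RNA used for libraries. Both pools came from the same crosses and so carry the reporter and Cre alike, and pooling leaves no replicate.

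The comparison was deposited as condition q2 against condition q1. Neither name matches the labels of 1 pool, so every direction below is that of q2 over q1 and none is assigned to the GFP+ or the RFP+ cells. For the same reason levels per condition were not used. The rows carry no gene symbols, so markers of the labelled cell types could not be looked up, and neither could the markers of red cells, endothelium, mesenchyme or macrophages. In pooled cells of this kind, fewer cells of a type and less RNA per cell cannot be told apart.

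Haemoglobin is built from a pair of alpha-like and a pair of beta-like chains. In the mouse, the first red cells arise in the yolk sac and enter the circulation as large nucleated primitive erythroblasts at about the stage sampled here. They use embryonic chains, zeta from Hba-x, epsilon-y from Hbb-y and beta-H1 from Hbb-bh1, together with the adult alpha chains of Hba-a1 and Hba-a2. Definitive red cells of the fetal liver and bone marrow use the adult alpha chains with the adult beta chains. The genes of each cluster lie side by side and are driven by a distant enhancer region that the whole cluster shares. The adult beta genes are named Hbb-b1 and Hbb-b2 in mice with the diffuse haplotype and Hbb-bs and Hbb-bt in C57BL/6 mice.

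Loci were paired with genes by their length. Of the 10 loci, 8 had a span within 1 base of a single globin gene or transcript of the same chromosome in the RefSeq or GENCODE tables of the later GRCm38 build. The 1516 bases of the first alpha locus stood beside 1517 for Hba-x, and the spans of Hbq1b, Hbq1a, Hbb-bt, Hbb-bs, Hbb-bh1 and Hbb-y were equal at 949, 805, 1400, 1406, 1525 and 1454 bases. The locus of 1398 bases stood beside a GENCODE transcript of Hbb-bh2 of 1397 bases. The other 2 loci were both 822 bases long, and the genes left for them were Hba-a1 and Hba-a2, of 815 and 819 bases. Which of these 2 loci is which gene was not settled by length, so they are told apart below by their distance from Hba-x. In the later build, the promoter of Hba-a1 lies between those of Hba-x and Hbq1b, and that of Hba-a2 between those of Hbq1b and Hbq1a. If this order is the same in mm9, the locus nearer to Hba-x is Hba-a1.

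The copies differ little in sequence, and this bears on how reads can be assigned to them. The coding sequences of Hba-a1 and Hba-a2 differ at 1 of 429 bases, and their proteins are identical over 142 residues. That difference, C381T counted from the A of the start codon, from Hba-a1 to Hba-a2, is the capital in coding bases 351 to 411.

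Hba-a1: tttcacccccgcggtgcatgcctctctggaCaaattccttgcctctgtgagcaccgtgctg

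Hba-a2: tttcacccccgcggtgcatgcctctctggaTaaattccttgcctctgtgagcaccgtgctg

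Hbb-bs and Hbb-bt likewise differ at 1 of 444 coding bases, C417T from Hbb-bs to Hbb-bt, shown as a capital in coding bases 387 to 444, and their proteins are identical over 147 residues.

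Hbb-bs: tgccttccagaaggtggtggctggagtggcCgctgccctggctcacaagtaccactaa

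Hbb-bt: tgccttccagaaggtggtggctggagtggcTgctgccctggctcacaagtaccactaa

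The embryonic and theta genes are set apart from these adult copies from the first codons on. The first 60 coding bases are printed for 1 adult gene of each cluster and for its relatives, with capitals where a base differs from Hba-a1 in the alpha cluster or from Hbb-bs in the beta cluster at the same position. Hba-a2 and Hbb-bt had 0 differences in this stretch.

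Hba-a1: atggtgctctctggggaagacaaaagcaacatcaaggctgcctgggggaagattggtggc

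Hba-x: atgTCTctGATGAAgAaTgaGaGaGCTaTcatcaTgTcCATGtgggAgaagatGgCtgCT

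Hbq1b: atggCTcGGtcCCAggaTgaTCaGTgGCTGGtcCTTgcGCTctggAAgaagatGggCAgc

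Hbb-bs: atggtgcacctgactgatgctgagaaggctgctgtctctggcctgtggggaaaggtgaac

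Hbb-bh2: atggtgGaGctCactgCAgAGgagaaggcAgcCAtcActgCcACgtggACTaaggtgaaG

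Hbb-bh1: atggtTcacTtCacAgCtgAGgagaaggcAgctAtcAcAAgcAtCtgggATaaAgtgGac

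Hbb-y: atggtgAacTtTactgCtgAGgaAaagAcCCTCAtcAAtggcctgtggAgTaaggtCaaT

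Hba-x and Hbq1b each differed from Hba-a1 at 28 of these 60 bases. Hbb-bh1 and Hbb-bh2 each differed from Hbb-bs at 18, and Hbb-y at 19.

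How far transcripts can share reads was described with every window of 50 bases. Only windows identical at every base were counted, so sharing of reads with mismatches is not described. Of the windows of the Hba-a2 transcript, 86.9% also stood in another globin transcript, against 67.5% for Hba-a1, 65.8% for Hbb-bs and 58.3% for Hbb-bt. Hbq1b and Hbq1a, the theta genes, shared 39.8% and 36.8%. Hba-x, Hbb-bh2, Hbb-bh1 and Hbb-y shared 0 windows of 50 bases, and also 0 of 36 bases. The read length is not given in the sources used here, so windows of 36, 50, 75 and 100 bases were all counted. At 100 bases Hba-a2 still shared 74.5% and Hba-a1 56.5%. Values of the Hba-a1 and Hba-a2 loci, of the Hbb-bs and Hbb-bt loci and of the theta loci are therefore uncertain within each pair, while Hba-x, Hbb-bh1 and Hbb-bh2 share no such windows with the globin transcripts compared.

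**Figure D1:**
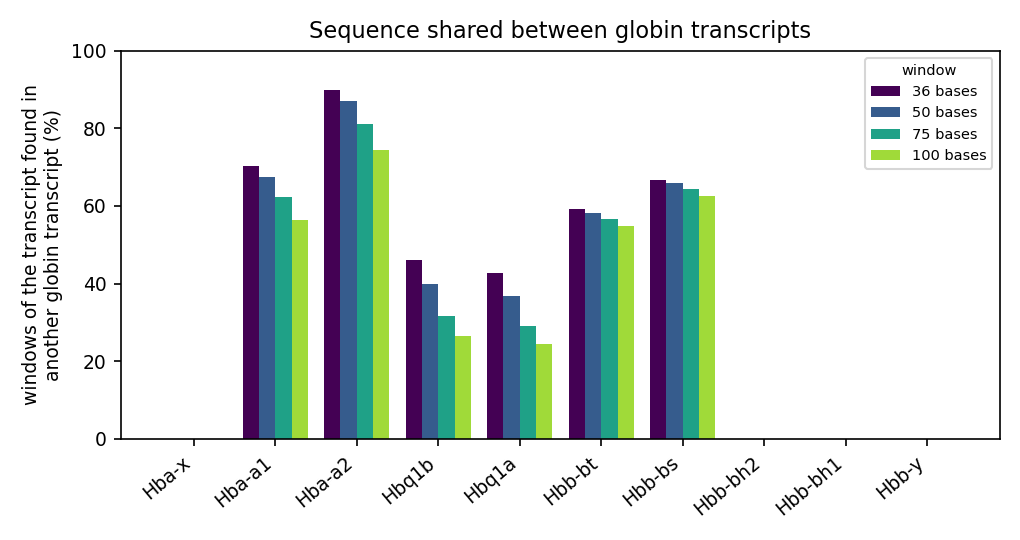
Share of the windows of each globin transcript that also occur in another of the 10 globin transcripts, in percent, for windows of 36, 50, 75 and 100 bases (bars, GENCODE transcripts). Hba-x, Hbb-bh2, Hbb-bh1 and Hbb-y are at 0 at every window length, and Hba-a2 is highest at 89.98% for 36 bases.

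Globin RNA was higher in condition q2, by 8.68-fold to 10.6-fold, at every globin locus that was called different. The authors tested 9 of the 11 rows, of which 8 were called and all 9 had a positive fold change. All 4 tested rows of the alpha cluster and 4 of 5 of the beta cluster were called. Positive calls made up 0.690% of the 29405 rows tested in the whole table; the members were picked from this contrast, so nothing is read from their share. The 8 called rows had a median log2 fold change of 3.28, or 9.75-fold, and ranged from 3.12 to 3.40. Over all 28140 tested rows with a finite value the median log2 fold change was 0.0046. The same 8 rows were counted at a q-value of at most 0.01, where the share of positive rows in the table was 0.571%, and at a q-value of at most 0.1, where it was 0.806%. Errors, written after ±, are the log2 fold change over its deposited test statistic without signs, and each 95% interval is made from that error. Since each condition is 1 library, these errors and the deposited q-values compare 2 libraries and have no replicate check.

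The embryonic alpha-like gene Hba-x, which makes the zeta chain, had a log2 fold change of 3.36 ± 0.28 in the authors' deposited table, or 10.2-fold with a 95% interval from 7.04 to 14.9. Its locus is chr11:32176599-32178115. Its test statistic of -12.2 was the second largest in size among the 28140 rows, and its q-value is listed as 0. The deposited statistics carry the opposite sign to the fold changes throughout these members.

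The adult alpha genes were higher by nearly the same factor. The locus nearer to Hba-x, chr11:32183671-32184493, had a log2 fold change of 3.28 ± 0.34 in the authors' deposited table, or 9.74-fold with an interval from 6.11 to 15.5. The locus farther away, chr11:32196488-32197310, had 3.22 ± 0.32, or 9.31-fold with an interval from 6.04 to 14.3. Both have a q-value listed as 0 there. Because most windows of these transcripts are shared, the values of this pair may depend on each other, which was not tested.

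The theta genes, alpha-like genes of the same cluster with no settled part in haemoglobin, gave 1 tested and 1 untested row. In the authors' deposited table Hbq1b, at chr11:32186963-32187912, had a log2 fold change of 3.19 ± 0.55, or 9.10-fold with an interval from 4.29 to 19.3, at q = 3.27e-06. Hbq1a, at chr11:32200068-32200873, was marked as not tested there. Its listed log2 value was 0.74 and the error 1.33, too wide to tell it from 0 or from that of Hbq1b.

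In the beta cluster, the row for the embryonic gene Hbb-bh1 held the largest test statistic in size of the 28140 finite tested rows. It lies at chr7:110990151-110991676, and its log2 fold change was 3.29 ± 0.27 in the authors' deposited table, or 9.75-fold with an interval from 6.76 to 14.1. A second transcript row at the same locus had a log2 fold change of 3.16, but its test statistic of -0.023 gives an error of 136 log2 units and its q-value there is 0.999983, so it carries no information on a difference. It is the 1 tested member without a call.

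Hbb-y, the gene of the embryonic epsilon-y chain, has no measured difference. The row at chr7:111000267-111001721 is marked as having too much data, a mark that Cuffdiff gives a locus with more fragments than it is set to process. It is the 1 row of all 55418 with that mark. The fold change and the statistic listed for it are 0, with a p-value of 1 in the authors' deposited table, and these are placeholders of an untested row and not a finding of equal levels.

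The adult beta genes, which serve definitive red cells, also lay in this range. Hbb-bs, at chr7:110975036-110976442, had a log2 fold change of 3.40 ± 0.43 in the authors' deposited table, or 10.6-fold with an interval from 5.93 to 18.9, at q = 1.78e-12. Hbb-bt, at chr7:110961037-110962437, had 3.12 ± 0.47, or 8.68-fold with an interval from 4.57 to 16.5, at q = 2.22e-08. Hbb-bh2, a beta-like gene between the adult and embryonic genes at chr7:110987637-110989035, had 3.32 ± 0.74 in the authors' deposited table, with a fold interval from 3.66 to 27.3, at q = 0.00154. It had the widest error of the called members.

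**Figure D2:**
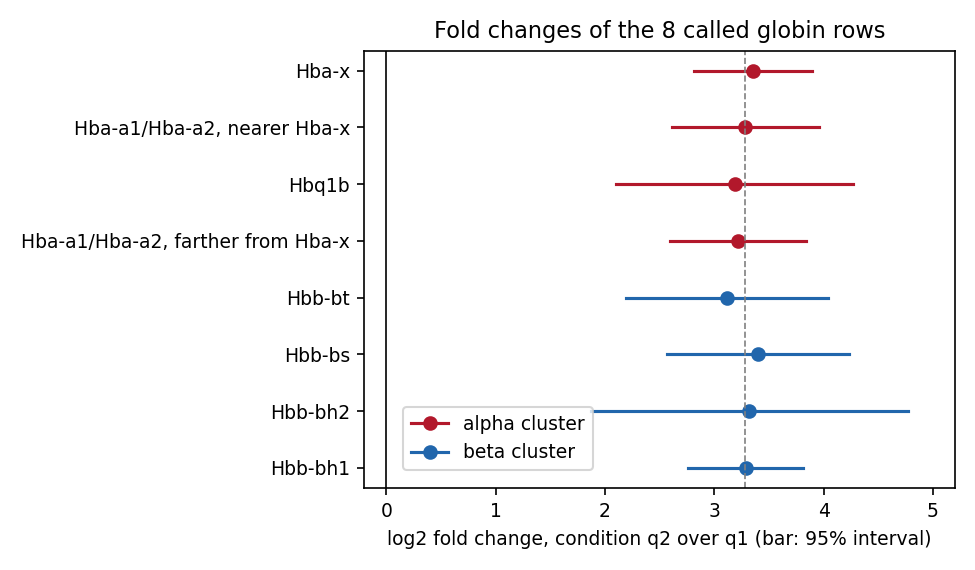
Log2 fold change of condition q2 over condition q1 for the 8 called globin rows (points) with the 95% interval from the deposited test statistic (bars), alpha cluster in red and beta cluster in blue. The dashed line is their median of 3.28, and every interval contains it while none reaches 0.

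The log2 fold changes of the 8 called members lay close together, with an SD of 0.093 over rows. The largest difference among them was 0.28 log2 units, between Hbb-bs and Hbb-bt. The errors of single members, with a median of 0.38, were wider than this spread, so they cannot show whether the members differ. The median was 3.25 for the 4 called rows of the alpha cluster and 3.30 for the 4 of the beta cluster. The 2 embryonic genes with a call, Hba-x and Hbb-bh1, had values of 3.36 and 3.29, within the range of 3.12 to 3.40 of the 4 adult loci. The 3 called genes that share no windows with other globin transcripts, Hba-x, Hbb-bh1 and Hbb-bh2, lay between 3.29 and 3.36. Those that share windows lay between 3.12 and 3.40. Windows shared between the 2 rows of the Hbb-bh1 locus were not counted. The part of shared reads in these values was not tested.

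**Figure D3:**
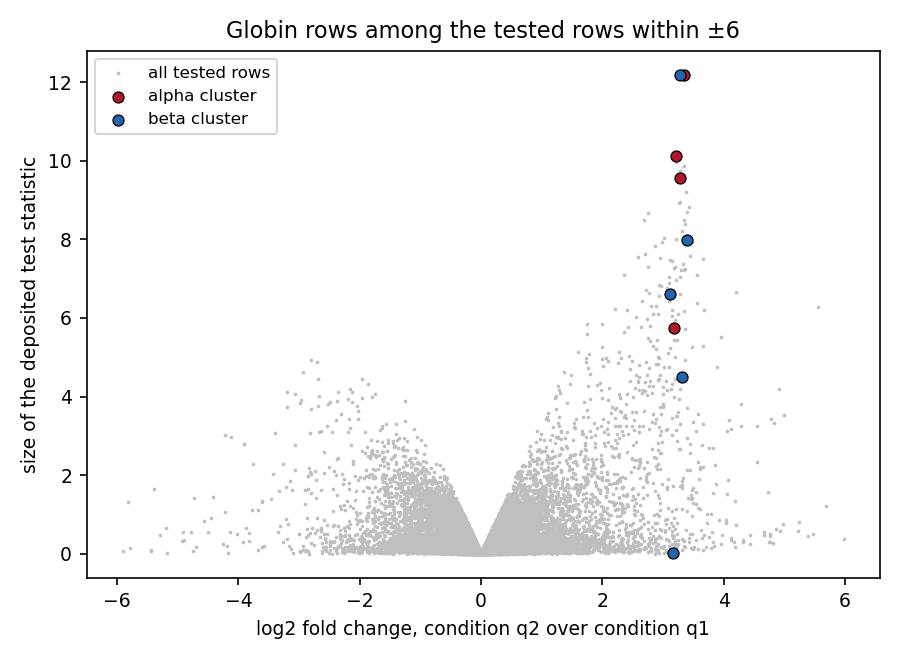
Size of the deposited test statistic against the log2 fold change of condition q2 over condition q1 for tested rows with a log2 fold change within ±6 (grey) and for the 9 tested globin rows (alpha red, beta blue). The called globin rows form a narrow column at 3.12 to 3.40, with Hbb-bh1 and Hba-x at the top, and the second Hbb-bh1 row lies at the bottom.

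As the members were picked from this contrast, their ranks are a description only. Globin rows stood among the strongest statistics of the 28140 tested rows with a finite fold change, the only rows ranked. They held 4 of the 10 largest in size, those of Hbb-bh1, Hba-x and the Hba-a1 and Hba-a2 loci. The same 4 rows were among the 18 finite calls whose p-value is listed as 0 in the authors' deposited table. The ranks of the other called members by the size of the statistic were 22 for Hbb-bs, 54 for Hbb-bt, 79 for Hbq1b and 133 for Hbb-bh2. The fold changes hardly vary over these rows, so the ranks follow their errors. Globins were not alone at this ratio. Of the 230 finite calls of the table, 48 lay between the lowest and highest called globin row, and 40 of these were not globins.

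No row next to the clusters was called. Of all tested rows of the table only 0.803% had a call of either sign, so nothing is read from this absence. The nearest row below the alpha cluster ended 8.94 kb before Hba-x, and the nearest above began 46.9 kb past Hbq1a. Within 100 kb of the window, there were 11 tested rows at 4 loci beside the alpha cluster, and none had a call. Of these, 5 rows had an error under 1 log2 unit, and their log2 fold changes in the authors' deposited table ran from -0.25 to 0.76 with errors from 0.30 to 0.72. The other 6 rows had errors from 1.78 to 11.6 and carry little information. Around the beta cluster, 7 rows below and 5 of 6 above were not tested, and the 1 tested row, 75.9 kb past the window, stood at 1.96 ± 1.21 and had no call. The beta cluster therefore has almost no measured neighbour within this distance. What the neighbouring genes are was not looked up, as the gene tables are of another build.

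**Figure D4:**
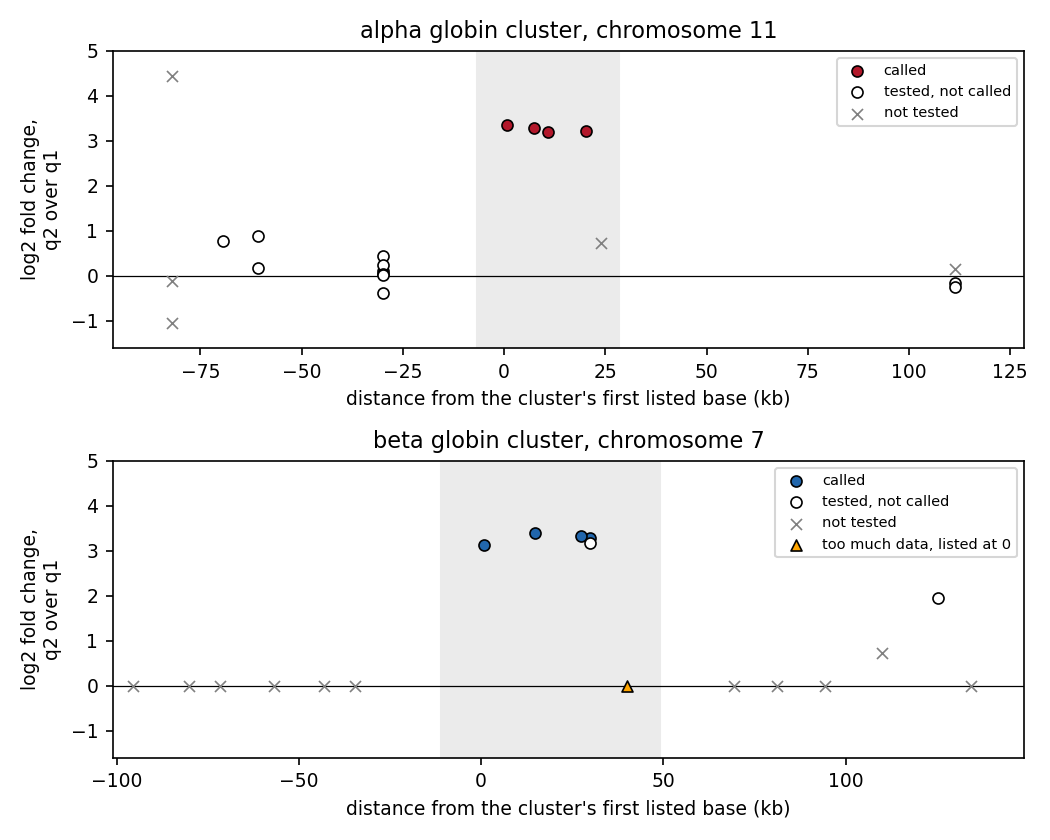
Log2 fold change of condition q2 over condition q1 along each globin cluster and its neighbours, against distance in kb from the first listed base of the cluster; the grey band is the window that chose the members. Called rows lie at 3.12 to 3.40 inside the bands, tested neighbours of the alpha cluster between -0.39 and 0.89 (6 of these 11 have errors of 1.78 or more, not drawn), and the Hbb-y row, listed at 0, is untested.

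Promoter sequence is described beside the fold changes, and a link between them was not tested. Promoters of 9 of the 10 genes were in the RefSeq table of the GRCm38.p6 build, and 1, Hbb-bh1, was not matched. The 120 bases before the start site are printed for 6 of them, 5′ to 3′ on the strand of the gene. Capitals mark matches on either strand to 5 motifs. They are AGATAA as a form of the GATA factor core, CCACCC as a form of the box bound by Klf1-like factors, and CCAAT as the box that carries this name. Only these exact letters were searched. Related forms, such as ccacaccc in Hbb-bs and tgataa in Hba-x, were not searched and stay in lower case. For the TATA box the letters TATAAA were searched, and the shorter TATAA, which every match of the longer one contains.

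Hba-x (chr11:32276480-32276599, plus strand): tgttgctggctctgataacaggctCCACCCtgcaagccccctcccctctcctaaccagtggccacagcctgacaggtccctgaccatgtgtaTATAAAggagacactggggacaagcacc

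Hba-a1 (chr11:32283552-32283671, plus strand): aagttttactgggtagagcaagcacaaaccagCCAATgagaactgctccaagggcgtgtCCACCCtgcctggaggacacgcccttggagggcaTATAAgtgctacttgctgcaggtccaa

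Hbq1b (chr11:32286844-32286963, plus strand): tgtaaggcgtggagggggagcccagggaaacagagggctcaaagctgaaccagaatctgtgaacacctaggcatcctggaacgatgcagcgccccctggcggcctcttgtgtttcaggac

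Hbb-bt (chr7:103813924-103814043, minus strand): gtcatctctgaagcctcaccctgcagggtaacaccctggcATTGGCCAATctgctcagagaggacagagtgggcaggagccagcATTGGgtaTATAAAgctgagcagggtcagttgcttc

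Hbb-bs (chr7:103827929-103828048, minus strand): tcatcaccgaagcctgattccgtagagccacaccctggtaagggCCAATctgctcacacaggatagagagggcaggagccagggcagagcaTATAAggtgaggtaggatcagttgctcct

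Hbb-y (chr7:103853208-103853327, minus strand): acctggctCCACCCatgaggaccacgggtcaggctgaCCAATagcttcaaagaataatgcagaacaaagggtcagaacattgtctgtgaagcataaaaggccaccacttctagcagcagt

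In the full 250 bases before the start, CCAAT stood in 7 of the 9 globin promoters, against 33.8% of the 32851 promoters of the table, and was not found for Hba-x and Hbb-bh2. CCACCC stood in 5 of 9, those of Hba-x, Hba-a1, Hba-a2, Hbb-bt and Hbb-y, against 28.1% of all. TATAAA stood in 2, those of Hba-x and Hbb-bt, against 12.4%, and TATAA in 6, against 22.8%. AGATAA stood in Hbb-bs and Hbb-bh2, against 9.99%. Other forms of these sites were not counted, so a promoter left out of a list is not shown to lack the site. Hba-a1 and Hba-a2, and Hbq1b and Hbq1a, are near copies upstream but were counted separately, so the 9 promoters are not independent. In Hba-x, Hba-a1, Hba-a2, Hbb-bt and Hbb-bs a TATAA match on the strand of the gene began between 27 and 30 bases before the start site. Matches on the other strand lay 225 to 229 bases before the start in Hbb-bt and 152 to 156 bases before it in Hbq1b, which had no match on its own strand. The log2 fold changes of all called members lay within 0.28 of each other, less than their median error of 0.38. They therefore cannot show a difference between members with and without a motif, and a link to motifs was not tested. The upstream 250 bases of Hba-a1 and Hba-a2 were 97.6% identical once aligned, those of Hbq1b and Hbq1a 95.6%, and those of Hbb-bs and Hbb-bt 69.3%, while those of Hba-x and Hba-a1 were 50.4% identical.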

How the data were processed

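Per the submitters' processing notes, reads were handled with TopHat 1.3.2, Cufflinks 2.0.2 and Cuffdiff on mm9. Annotation, read length and Cuffdiff's version and settings were not given in the sources used here. What the authors deposited is 1 table of log2 fold changes, each with a test statistic (a score), a p-value and a q-value. A call is a row that the authors marked significant. The 2 columns of values per condition match no sample and were not used, so library depth is unknown. Of the row IDs, 0 matched the gene tables, so the planned marker lists were not run and 8 loci were named by length (tolerance 1 base) and the Hba-a1 and Hba-a2 pair by elimination. Other named rows are the 2 calls nearest the members' median. Members and lists were chosen with earlier results of these data known. Starts are printed as the table lists them and count from 0, judged by the spans. Coding sequences are the longest reading frame of the transcript that GENCODE M21 numbers first for each gene, aligned globally (match 1, mismatch -1, gap opening -3, extension -1). Functions were checked on simulated data. Tools were Biopython 1.88, matplotlib 3.10.9, numpy 2.4.6, scipy 1.17.1, pandas 2.3.3 and Python 3.11.15.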

Additional observations from a re-analysis of the deposited data

How the results depend on the processing

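No replicate could be left out, since each pool is 1 library. No paired analysis was possible because the result comes from 1 library a condition. The number of called globin rows stayed at 8 at a q-value of at most 0.01 or 0.1, with p-values adjusted over every row of the table, and with loci wholly inside a window; loci that list a single row left 7, because Hbb-bh1 drops out. The median log2 fold change of the 9 tested rows was 3.28. Under the 7 alternatives it ran from 3.22, with untested rows counted, to 3.29, in the beta cluster alone. The setting with untested rows counts the placeholder of Hbb-y as a value. The alternatives reuse the same few rows of the same libraries, so their likeness is no independent check. Of the alternatives, 2 were chosen after seeing the data: called rows only, and every status but the row with too much data. The shorter TATAA motif was also chosen then. The share of calls of either sign, 0.803% of tested rows, was 1.72% of the 13402 tested loci when loci were counted in place of rows.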

Other observations

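Among called rows outside the globin clusters, 2 lay closest to the median of the tested globin rows in the authors' deposited table. Row uc007zwl.1 at chr16:90738568-90750021 stood at 3.28 ± 0.47 on the log2 scale. Row uc007mnv.2 at chr11:117658973-117668622 stood at 3.28 ± 0.50. Values after ± are errors. Their genes are not named here, and they were chosen for this likeness in 1 comparison of 2 libraries. Counting rows whether called or not, 97 of the 28140 tested rows lay in the range of the called globin rows.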
